A study of Mus musculus with 16 samples.

Results

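The cell cycle and mitosis genes are 40 genes whose products copy DNA, divide the nucleus and mark dividing cells. They were chosen by name, by a rule that uses no measured value but was set with earlier results of these data known, as the probes whose gene name on the array equals a member. All 40 had at least 1 probe, 73 probes in all, among 37074 gene names and 56605 probes on the array. Liver RNA was measured on 1-colour Agilent arrays, 1 array for each of 16 male C57BL/6 mice fed normal chow (NC), in 3 groups. All were conventional (Conv) mice, which kept their own gut bacteria and, per the methods, had no antibiotics. The 6 Conv + PBS mice were the controls, which the labels call not transplanted and the methods describe as gavaged with reduced PBS. The 5 Conv + LM mice were gavaged with the caecal microbiota of lean NC-fed donors, and the 5 Conv + OM(HFD) mice with that of donors made obese on a high-fat diet (HFD). Recipients started at 6 weeks of age and the labels give an age of 10 weeks. The labels used here do not place mice in cages, so cage and group cannot be told apart. The arrays lay on 2 slides, each of which held mice of all 3 groups.

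Dividing cells pass from G1 through DNA synthesis (S) to G2 and mitosis (M). E2F factors switch on the genes of DNA replication towards S phase, while the DREAM and MuvB complexes, with FOXM1 and B-MYB, control genes of G2 and mitosis through CHR and CCAAT elements near their start sites. Cyclins bind and activate the cyclin-dependent kinases that drive each step. Most hepatocytes of an adult liver rest outside the cycle, and immune cells and their precursors in the tissue can divide too. In whole tissue, fewer cells of a type and less RNA per cell cannot be told apart.

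The promoters of the members were read to show the elements they share, which the choice of genes did not use. All 40 members are RefSeq symbols, but the promoter sequences at hand (GRCm38.p6) covered the start sites of only 32 of them. These gave 34 windows of 300 bases (250 before the start and 50 after). A CHR (TTTGAA or TTCGAA, either strand) lay in 19 of the 34 windows (55.9%) and in 19.2% of all 32851 windows of the same length. The E2F sequences searched (TTTGGCGC, TTTCGCGC, TTTGCCGC or TTTCCCGC, either strand) lay in 6 of 34 (17.6%), against 2.3% of all windows. CCAAT, on either strand, lay in 27 of 34 (79.4%), against 37.4% of all windows. The bases before the start are printed for 4 members that the results below turn on, Mki67 and Cdc20, which varied together between mice, and Pcna and Cdk1, whose median r with the other members was below 0. Capitals mark these sequences, with ATTGG the other strand of CCAAT; no capitals of different elements overlap.
Mki67 (chr7:135716380-135716629, minus strand): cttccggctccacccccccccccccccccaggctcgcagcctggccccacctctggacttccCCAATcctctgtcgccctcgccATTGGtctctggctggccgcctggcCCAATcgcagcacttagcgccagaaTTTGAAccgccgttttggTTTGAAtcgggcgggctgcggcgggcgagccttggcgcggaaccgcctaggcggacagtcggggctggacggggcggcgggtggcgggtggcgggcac
Cdc20 (chr4:118437344-118437593, minus strand): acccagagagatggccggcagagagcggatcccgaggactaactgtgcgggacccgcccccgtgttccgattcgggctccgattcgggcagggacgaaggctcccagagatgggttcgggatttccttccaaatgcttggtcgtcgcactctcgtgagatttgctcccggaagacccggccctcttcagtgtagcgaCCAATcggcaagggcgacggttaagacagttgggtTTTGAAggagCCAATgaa
Pcna (chr2:132253181-132253430, minus strand): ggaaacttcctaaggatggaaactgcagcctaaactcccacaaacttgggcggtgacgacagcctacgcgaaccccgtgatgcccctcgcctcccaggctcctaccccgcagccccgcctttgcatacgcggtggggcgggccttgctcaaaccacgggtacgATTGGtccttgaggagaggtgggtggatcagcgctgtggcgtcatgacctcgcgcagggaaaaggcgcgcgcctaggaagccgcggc
Cdk1 (chr10:69352913-69353162, minus strand): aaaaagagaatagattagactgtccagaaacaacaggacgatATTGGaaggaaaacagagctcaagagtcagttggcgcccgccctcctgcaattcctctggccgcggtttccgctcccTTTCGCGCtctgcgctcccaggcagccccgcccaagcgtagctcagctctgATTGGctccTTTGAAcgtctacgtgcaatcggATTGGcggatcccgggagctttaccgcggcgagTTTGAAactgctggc
Mki67 and Cdc20 each held a CHR and CCAAT, Cdk1 held these and an E2F sequence, and Pcna held CCAAT alone of the sequences searched. A match is a string of letters and says nothing on binding in these livers.

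Detection came first. The scanner software calls a probe well above background when its brightness clears that of the empty surface around it. The best probe of 22 members (55.0%) was called so on all 16 arrays, against 46.0% of all gene names. For 9 members (22.5%, against 9.0%) this held on 5 to 15 arrays, for 6 (15%, against 21.5%) on 1 to 4, and for 3 (7.5%, against 23.5%) on none. A gene was tested if a probe was well above background on at least 5 arrays, the size of the smallest groups, which 31 of the 40 members and 20400 of all gene names met. Every statement on tested members below concerns these 31, since the other 9 were above background on too few arrays to be compared.

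The enzymes that supply DNA synthesis were the best covered, with all 4 on every array: Pcna, the sliding clamp of DNA polymerases, Rrm2, a subunit of ribonucleotide reductase, and the thymidylate-making enzymes Tyms and Tk1. All 3 genes with the role of mitotic exit and ubiquitin ligase were on every array as well. They were Cdc20, an activator of the anaphase-promoting complex, Ube2c, the E2 enzyme that works with that complex, and Cdca3. Of the 8 genes that license and start replication, Mcm3, Mcm4, Mcm6 and Mcm7, subunits of the replicative helicase, were on every array, while Cdc6 and Mcm5 were on 14, Mcm2 on 13 and Cdc45 on 5. Among the cyclins, Ccnd1, Ccne1, Ccna2 and Ccnb2 were on every array. Cdk1, the kinase of mitosis, was on 10 arrays. Aurka, Plk1, Birc5 and Cdca8, a mitotic kinase pair and a pair of subunits of the chromosomal passenger complex, were on every array, as were Cenpa, the centromeric histone, and the mitotic kinesin Kif20a. Mki67, the usual stain for dividing cells, was on every array, and Top2a, the enzyme that untangles sister chromosomes, was on 9.

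The members that failed were mostly mitotic. Ccne2, the checkpoint kinase Bub1 and the spindle factor Tpx2 were not well above background on any array. By the best probe of each, Aurkb, Bub1b and Nuf2 were so on 1 array each, Ccnb1 on 2, Foxm1, the transcription factor of mitotic genes, on 3 and the spindle kinesin Kif11 on 4. With any of its probes counted, Ccnb1 was so on 3 arrays and Foxm1 on 5, but no single probe of either reached 5. Among the tested members, Prc1 was on 10 arrays, and Cenpe and Nusap1 on 6 each. Different probes of a gene could be far apart, since Birc5 had 1 probe on 16 arrays and another on 4, and Cdca8 had probes on 16, 4 and 0. A probe below background does not show that its transcript is absent.

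Of the 40 members, 23 to 31 were detected per mouse. The count was 29, 29, 23, 27 and 30 in the Conv + LM mice and 30, 28, 27, 30 and 26 in the Conv + OM(HFD) mice, and ran from 25 to 31 in the Conv + PBS mice. The groups overlapped, and so did the share of all probes detected, which was 49.73% to 58.32% over the 16 arrays. Detection differed between groups for a few dim members. Cdk1 was detected in 3 of 6 Conv + PBS, 2 of 5 Conv + LM and 5 of 5 Conv + OM(HFD) mice. Nusap1, a spindle protein, was detected in 3, 3 and 0, and since its bound under the background of the Conv + OM(HFD) arrays exceeded the mean of either other group, no fold change is given for it there.

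**Figure D1:**
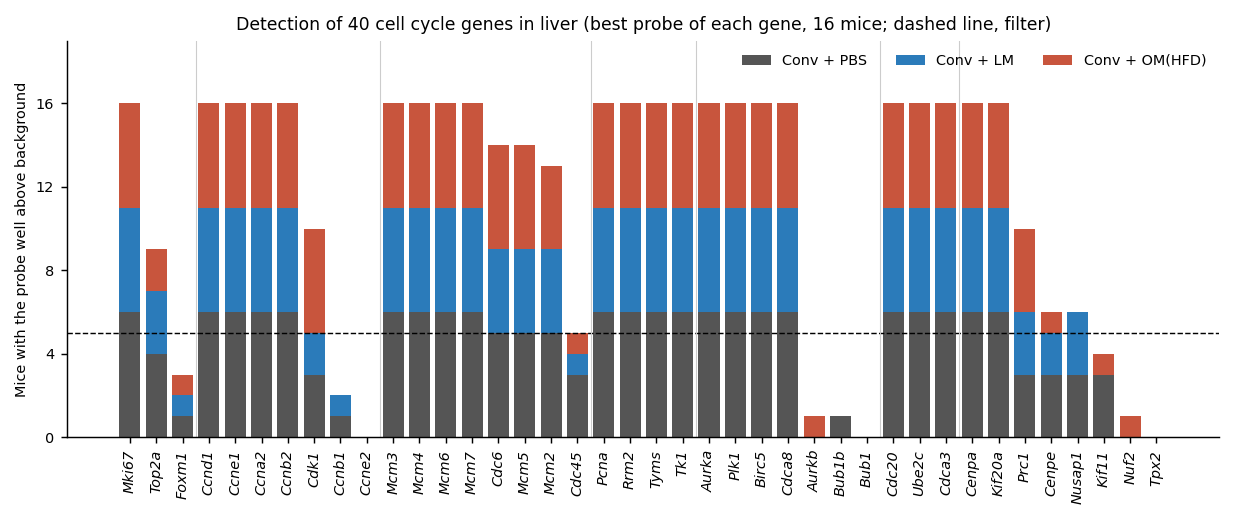
Number of mice (y axis) in which the best probe of each of the 40 members (x axis, ordered by role) was well above background, with the groups stacked in colour. The dashed line is the filter of 5 arrays, which 31 members met; 22 reach 16, and Cdk1 was detected in all 5 Conv + OM(HFD) mice.

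The first question was whether the lean or obese microbiota came with a change of these genes in liver. No member differed between groups at an adjusted p under 0.05. Levels are log2 brightness with the 75th percentile of each array set to 0, and levels of different genes cannot be compared on this scale. Of the 31 tested members, 15 were higher and 16 lower in Conv + OM(HFD) than in the controls, and 14 were higher and 17 lower in Conv + LM than in the controls. The median log2 fold change was -0.006 and -0.011 in these comparisons, against -0.002 and -0.011 for all genes. Both comparisons use the same control mice. When the recipients were compared with each other, 21 members were higher and 10 lower in Conv + OM(HFD), with a median of 0.058 against 0.003 for all genes; without Conv + PBS mouse 1 and Conv + OM(HFD) mouse 25, chosen after the data were seen, 13 were higher and 18 lower there, and 10 were higher and 21 lower in Conv + OM(HFD) than in the controls. The split against the controls was also 10 and 21 without Conv + OM(HFD) mouse 25 alone or Conv + PBS mouse 6 alone, and 9 and 22 with arrays weighted by their quality, but 19 and 12 without Conv + PBS mouse 4 and 18 and 13 with mouse 28 or mouse 30 of Conv + OM(HFD) left out and under normexp, a model-based way of removing background. In the comparison of recipients it was 24 and 7 under normexp, 13 and 18 without Conv + OM(HFD) mouse 25, 14 and 17 without Conv + LM mouse 15 and 16 and 15 without Conv + LM mouse 16. That of Conv + LM against the controls was 10 and 21 without Conv + PBS mouse 6, and 18 and 13 without Conv + LM mouse 15 or 16 or under normexp. These counts include Nusap1; without it they were 15 and 15 for Conv + OM(HFD) against the controls and 21 and 9 between the recipients.

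In limma, with all 3 groups in 1 fit, an unadjusted p under 0.05 was reached by 1 member of 31 for Conv + OM(HFD) vs. Conv + PBS (3.25% of all 20400 genes), 3 for Conv + LM vs. Conv + PBS (3.88% of all genes) and 2 for Conv + OM(HFD) vs. Conv + LM (2.67%). For any difference among the 3 groups it was reached by 2 members (2.88% of all genes). With Benjamini-Hochberg adjustment in limma over all genes it was reached by no member and by 0% of genes in any of them. The smallest adjusted limma p of a member was 1, 0.998 and 0.999 in the 3 comparisons. The standard errors of the members' log2 fold changes ran from 0.10 to 0.51 against Conv + PBS, with a median of 0.23.

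**Figure D2:**
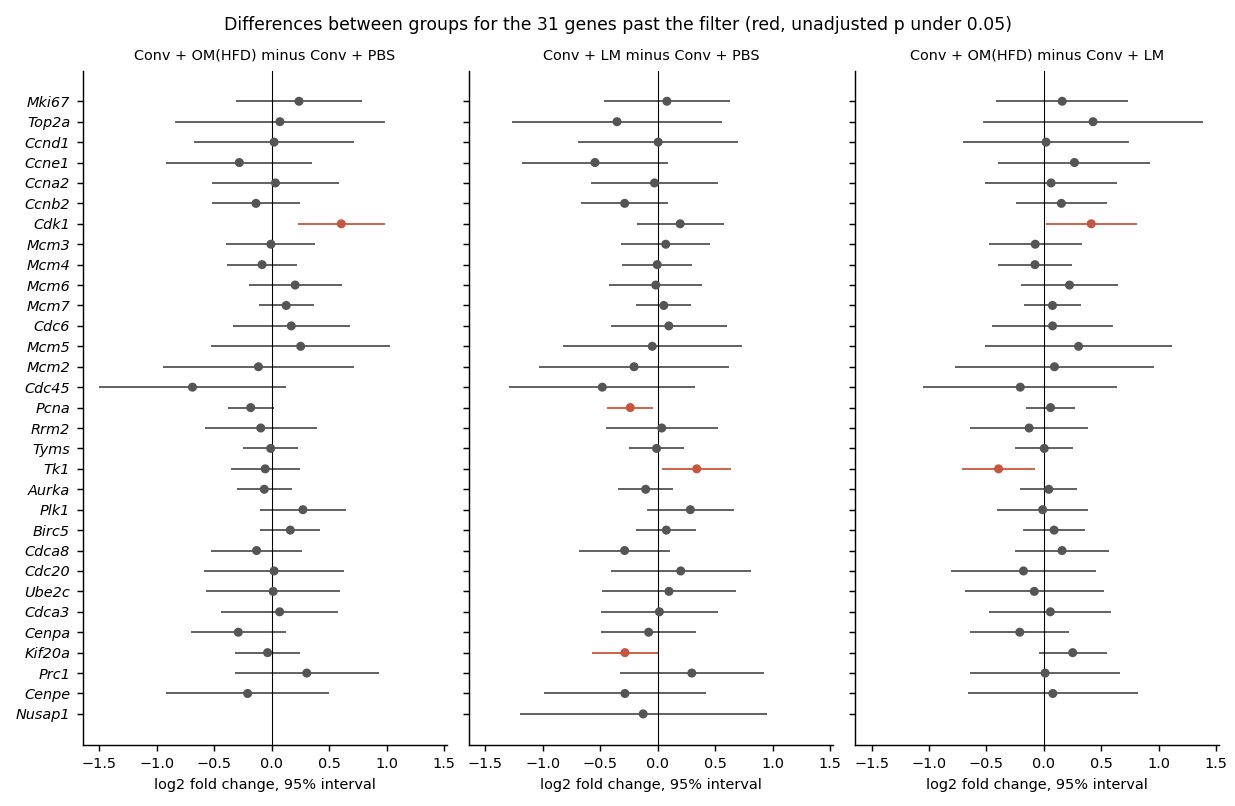
Log2 fold change (x axis) of each of the 31 tested members (y axis, by role) in the 3 comparisons, with points for the estimate and lines for the 95% interval of limma; Nusap1 has none in the comparisons with Conv + OM(HFD). Most intervals cross 0; in red are Cdk1, Pcna, Tk1 and Kif20a where the unadjusted p was under 0.05.

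Mki67 did not separate the groups. Its log2 level was -1.81, -1.85, -2.27, -2.66 and -1.98 in the Conv + LM mice and -1.03, -1.84, -2.39, -2.05 and -2.48 in the Conv + OM(HFD) mice, while the lowest, median and highest Conv + PBS mice had -2.69, -2.26 and -1.53. The groups overlapped, and the highest of all was Conv + OM(HFD) mouse 25. The means were -2.19 ± 0.42 (SD, n = 6), -2.12 ± 0.35 (SD, n = 5) and -1.96 ± 0.58 (SD, n = 5) for controls, Conv + LM and Conv + OM(HFD). The p among the 3 groups was 0.657 in limma and 0.703 in an exact permutation test. The 95% interval of Conv + OM(HFD) minus Conv + PBS was -0.31 to 0.79 on the log2 scale, and that of Conv + LM minus Conv + PBS -0.47 to 0.63.

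Top2a was dimmer and more scattered. Its log2 level was -3.38, -3.62, -6.02, -4.86 and -3.62 in Conv + LM and -2.86, -3.87, -4.07, -4.32 and -4.25 in Conv + OM(HFD) mice, and -4.70, -3.91 and -3.18 in the lowest, median and highest Conv + PBS mice. The groups overlapped (p = 0.601 in limma and 0.675 in the exact permutation test over 3 groups), and the probe was well above background in 4 controls, 3 Conv + LM and 2 Conv + OM(HFD) mice.

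Ccnd1, the cyclin of G1 that responds to growth signals, had nearly equal group means of 1.34 ± 0.39 (SD, n = 6), 1.34 ± 0.42 (SD, n = 5) and 1.36 ± 0.85 (SD, n = 5) in the same order. Its widest spread was among the Conv + OM(HFD) mice, with log2 levels of 1.90, 1.81, 0.86, 2.12 and 0.11. The Conv + LM mice had 1.49, 1.76, 1.096, 0.74 and 1.62, and the Conv + PBS mice 0.67, 1.40 and 1.81 as lowest, median and highest. The highest and the lowest of the 16 mice were thus in 1 group (p = 0.998 in limma and 0.998 in the exact permutation test). The 95% interval of Conv + OM(HFD) minus Conv + PBS was -0.67 to 0.72.

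Mcm2, the helicase subunit often stained as a mark of licensed cells, had log2 levels of -3.001, -3.13, -3.94, -3.33 and -3.70 in Conv + LM, -2.38, -2.84, -3.21, -3.02 and -5.19 in Conv + OM(HFD), and -3.64, -3.25 and -2.55 as lowest, median and highest in Conv + PBS. Conv + OM(HFD) mouse 30 had the lowest value (p = 0.869 in limma and 0.914 in the exact permutation test over 3 groups). The probe was well above background in 4 of 5 Conv + OM(HFD) mice, so the gap to the lowest value is not firmly measured. Without mouse 30 the limma p among the 3 groups was 0.127. Birc5, or survivin, had 0.54, 0.48, 0.07, 0.22 and 0.33 in Conv + LM, 0.74, 0.40, 0.33, 0.38 and 0.24 in Conv + OM(HFD), and 0.03, 0.20 and 0.55 as lowest, median and highest in Conv + PBS. Its groups overlapped too (p = 0.435 in limma and 0.429 in the exact permutation test over 3 groups).

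Pcna was the only member whose values did not overlap between a pair of groups, in Conv + LM and Conv + PBS. Its log2 level was 3.31, 3.39, 3.47, 3.57 and 3.43 in Conv + LM mice, and 3.58, 3.69 and 3.80 in the lowest, median and highest Conv + PBS mice, so that all 5 Conv + LM mice were lower than every control. The groups barely separated, since the highest Conv + LM mouse had 3.571 and the lowest control 3.575. The Conv + OM(HFD) mice, at 3.16, 3.50, 3.42, 3.76 and 3.62, spanned both groups. The difference between Conv + LM and Conv + PBS was -0.24 (SE 0.09) on the log2 scale, or 0.847-fold, with an unadjusted p of 0.0228 in limma, 0.998 after adjustment, and 0.00433 in the exact permutation test. Groups failed to overlap for 1 member of 31 here and for 0.28% of the 20327 genes with a value in every mouse; the shares of all genes were 0.226% for Conv + OM(HFD) vs. Conv + PBS and 0.428% for Conv + OM(HFD) vs. Conv + LM, with 0 members in each. The difference was -0.27 among mice on slide 1 and -0.24 on slide 2, and its limma p rose to 0.0578 without Conv + LM mouse 13.

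Tk1, the salvage enzyme of thymidine, went the other way in Conv + LM mice. Its log2 level was 3.82, 3.91, 3.70, 3.92 and 3.36 in Conv + LM and 3.16, 3.35, 3.46, 3.19 and 3.58 in Conv + OM(HFD) mice, with 3.08, 3.36 and 3.74 as lowest, median and highest in Conv + PBS. Conv + LM mice 13, 14 and 16 lay above every mouse of the other groups, while mice 15 and 17 lay within their range. Conv + LM exceeded Conv + PBS by 0.34 (SE 0.14) on the log2 scale, with an unadjusted p of 0.0296 in limma, 0.998 adjusted, and 0.0519 in the exact permutation test. Conv + OM(HFD) was below Conv + LM by -0.39 (SE 0.15), with p of 0.0171 in limma, 0.999 adjusted, and 0.0238 in the exact permutation test. The 2 other tested probes of Tk1 gave 0.17 and 0.28 for the first difference and -0.07 and -0.24 for the second, and with the mean of the 3 probes the limma p was 0.0786 and 0.127. The first difference had a limma p of 0.054 to 0.0732 without any of Conv + PBS mice 1, 4 and 5 or Conv + LM mice 13, 14 and 16, and 0.0794 with array weights (0.27). It was 0.0563 without Conv + PBS mouse 1 and Conv + OM(HFD) mouse 25, and the methods' t-test missed its threshold as well.

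Cdk1 was highest in Conv + OM(HFD) mice, all of which had it above background. Its log2 level was -3.30, -3.54, -3.16, -3.13 and -3.32 there, -4.00, -3.82, -3.54, -3.24 and -3.90 in Conv + LM mice, and -4.26, -3.98 and -3.21 in the lowest, median and highest Conv + PBS mice. A single control, Conv + PBS mouse 1, reached the Conv + OM(HFD) range. Only 3 controls and 2 Conv + LM mice had the probe well above background, so both differences rest in part on values under it. The difference from Conv + PBS was 0.61 (SE 0.18) on the log2 scale, with an unadjusted p of 0.00391 in limma, 1 after adjustment, and 0.0173 in the exact permutation test. It was 0.87 among mice of slide 1 and 0.32 on slide 2, it was 0.24 with the authors' log2 values, and under normexp it was 0.17 with a limma p of 0.0608. The difference from Conv + LM was 0.41 (SE 0.19), with p of 0.0432 in limma and 0.0476 in the exact permutation test, but the limma p was 0.05 or more, up to 0.108, without any of Conv + PBS mouse 5, Conv + LM mice 13, 14 and 17 or Conv + OM(HFD) mice 25, 28, 29 and 30, and the call was also lost under normexp (0.10, limma p = 0.247), quantile normalization (0.33, 0.20), the authors' log2 values (0.13, 0.143), array weights (0.34, 0.0753) and no filter (0.41, 0.051).

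Kif20a, a motor of the dividing cell's midzone, had log2 levels of -2.77, -2.73, -2.72, -2.93 and -3.08 in Conv + LM, -2.18, -2.78, -2.83, -2.51 and -2.68 in Conv + OM(HFD), and -2.80, -2.62 and -2.13 as lowest, median and highest in Conv + PBS. Conv + LM mice were lower than Conv + PBS by -0.29 (SE 0.13), with p of 0.049 in limma, 0.998 adjusted, and 0.026 in the exact permutation test. The groups overlapped, and the limma p was 0.05 or more, up to 0.128, without any of Conv + PBS mice 1, 3, 4 and 5, Conv + LM mice 13, 16 and 17 or Conv + OM(HFD) mice 26, 29 and 30. The call was also lost with slide as a block (-0.27), quantile normalization (-0.25), the authors' log2 values (-0.17), no filter (-0.29) and normexp (-0.10), with a limma p of 0.0549, 0.0947, 0.0572, 0.0606 and 0.198, where the exact permutation test above used the main values.

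By role, counts are given with no test of a role as a whole. The 8 replication genes split into 4 higher and 4 lower for Conv + OM(HFD) vs. Conv + PBS, with log2 fold changes up to 0.25. The lowest, -0.69 for Cdc45, which loads with the helicase, rests mostly on values under background, so nothing is read from it. The probe was well above background in 3 of 6 controls, 1 of 5 Conv + LM and 1 of 5 Conv + OM(HFD) mice, and it passed the filter through the controls. The 4 genes of nucleotide supply and DNA synthesis were all lower there, from -0.18 to -0.01, none at an unadjusted p under 0.05, although Pcna reached it under normexp (-0.22, limma p = 0.021) and with the authors' log2 values (-0.21, limma p = 0.0415). The means of the 3 genes of mitotic exit and ubiquitin ligase were higher by 0.01 to 0.07. This direction rested on Conv + OM(HFD) mouse 25, at -1.61 for Cdc20, -1.80 for Ube2c and -1.62 for Cdca3. Their medians were lower in Conv + OM(HFD) mice (-2.627, -2.715 and -2.327) than in controls (-2.585, -2.674 and -2.306). All 5 tested members among the cyclins and Cdk1 had a higher mean with the obese than with the lean microbiota, by 0.02 to 0.41. Cdk1 alone was at an unadjusted p under 0.05. The shared sign rested in part on Conv + OM(HFD) mouse 25, at -1.76 for Ccna2 and 1.90 for Ccnd1. Without that mouse, the means of Ccna2 and Ccnd1 were below those of the Conv + LM group. The means of the 3 genes of mitotic exit were higher in Conv + LM mice than in controls by 0.01 to 0.20. None was at an unadjusted p under 0.05.

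**Figure D3:**
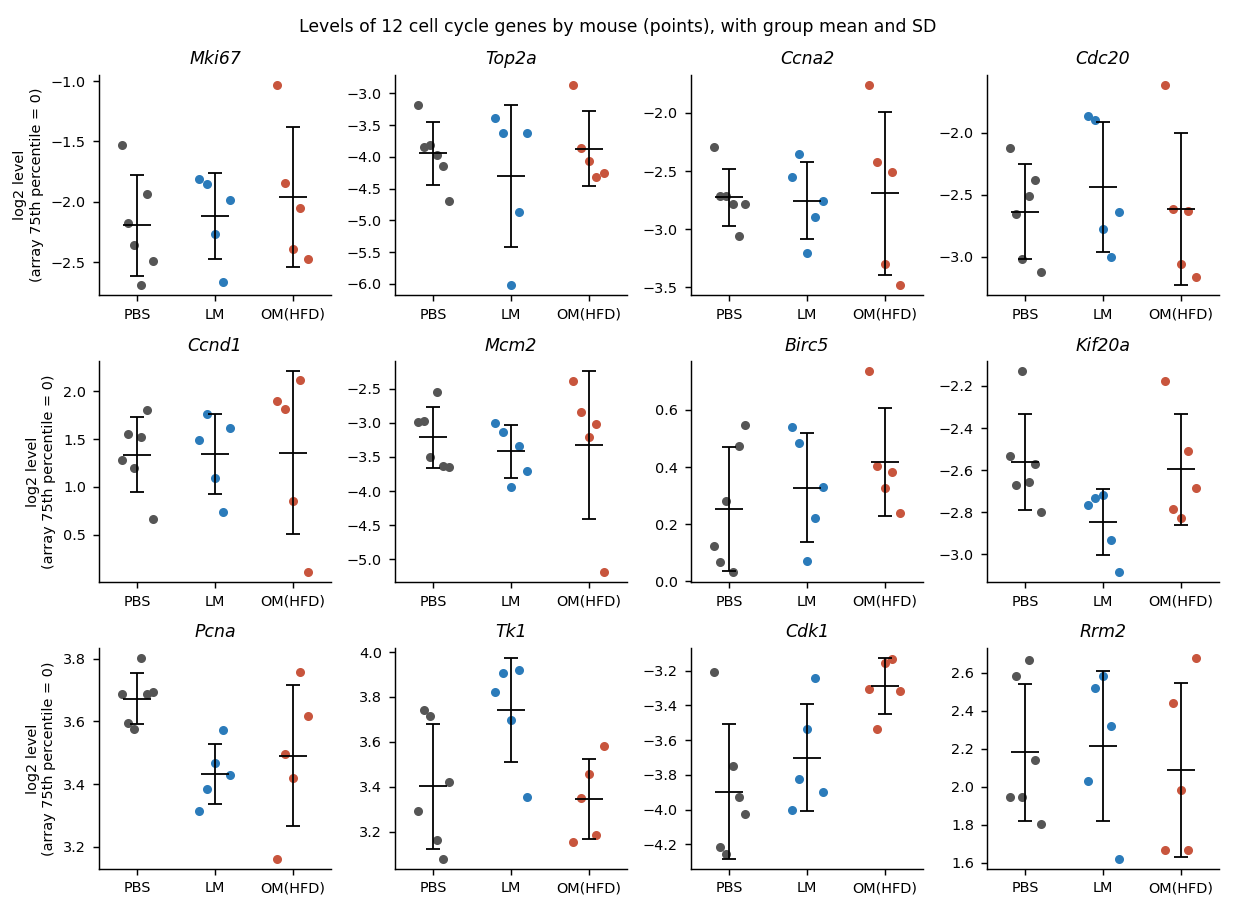
Log2 level (y axis, array 75th percentile set to 0, scale differs by panel) of 12 members in each mouse (points), by group (x axis), with the group mean and SD. Pcna in Conv + LM lies below every Conv + PBS mouse; Mki67, Top2a, Ccna2 and Cdc20 share their highest mouse, Conv + OM(HFD) mouse 25.

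Genes of the cycle outside the 40 had no adjusted call in any comparison. The unadjusted calls are to be read against 3.25%, 3.88% and 2.67% of all genes for Conv + OM(HFD) vs. Conv + PBS, Conv + LM vs. Conv + PBS and Conv + OM(HFD) vs. Conv + LM. Of 26 other genes of G1/S and S phase 23 were tested, and only Chaf1b, a chromatin assembly subunit, had an unadjusted limma p under 0.05, being higher in Conv + OM(HFD) mice than in controls by 0.50 (SE 0.22; adjusted p = 1). Of 30 other G2/M genes 17 were tested. Nek2, a centrosome kinase, was higher in Conv + OM(HFD) mice than in controls by 0.56 (SE 0.23) and than in Conv + LM by 0.60 (SE 0.24), Spc25, a kinetochore subunit, was higher in Conv + OM(HFD) mice than in Conv + LM mice by 0.52 (SE 0.19), and Kif23 was higher in Conv + LM than in Conv + PBS by 0.29 (SE 0.10). These are 5.88% of the list in each comparison with the controls and 11.8% between the recipients. All 16 brakes on the cycle were tested, with 12.5% called for Conv + OM(HFD) and 6.25% for Conv + LM against the controls, and 6.25% between the recipients. Ccng1, a p53 target, and Wee1, which holds back Cdk1, were lower in Conv + OM(HFD) mice than in controls by -0.30 (SE 0.09) and -0.34 (SE 0.13). Cdkn1b, or p27, was lower in Conv + LM by -0.19 (SE 0.08), and the call between the recipients was Cdkn2a, which passed the filter through 3 Conv + OM(HFD) and 2 Conv + PBS mice with 0 Conv + LM mice above background, so nothing is read from it. Of 6 other G1 cyclins and kinases, Ccnd2 was lower in Conv + OM(HFD) mice than in controls by -0.25 (SE 0.11).

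Beyond the groups, the members varied together from mouse to mouse. With the group means removed, the median Pearson r over the 465 pairs of the 31 tested members was 0.245, against 0.02 over all pairs of genes, and 26% of member pairs but 6.7% of all pairs had r over 0.5. Pairs with r above 0 were 68.0% of member pairs and 52.3% of all pairs. Within slides the median was 0.367 on slide 1 and 0.218 on slide 2. Without Conv + PBS mouse 1 and Conv + OM(HFD) mouse 25, whose Mki67 lay farthest from the median, it was 0.169. All genes of a mouse share its RNA, its array and the scaling, so these values describe the 16 livers and carry no p.

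At the centre of this pattern, Cdc20 had the highest median r with the other members (0.619), followed by Cdca8 and Ccna2 (0.511 each), Mki67 (0.477), Mcm3 (0.476) and Ccne1 (0.475). Cdc20, the anaphase activator, was -1.87, -1.90, -2.78, -2.999 and -2.64 in Conv + LM mice and -1.61, -2.61, -3.06, -2.63 and -3.16 in Conv + OM(HFD) mice, with -3.12, -2.58 and -2.12 as lowest, median and highest in Conv + PBS. The closest pair was Mcm3 with Cenpa (r = 0.938), then Mcm3 with Mcm4 (0.912) and Cdc20 with Cdca8 (0.876). Top2a was closest to Cdca3 (0.852), Mcm5 to Mcm6 (0.82) and Ccnb2 to Plk1 (0.791).

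The other members stood apart from this pattern or ran against it. The median r with the other members was below 0 for 7, namely Pcna (-0.29), Rrm2 (-0.225), Tk1 (-0.143), Cdc45 (-0.137), Mcm7 (-0.112), Aurka (-0.061) and Cdk1 (-0.005). Rrm2, Tk1 and Pcna supply nucleotides or hold the polymerase on DNA; the remaining member of that role, Tyms, had 0.322. Mcm7 went with Pcna (r = 0.612) and against Mcm4 (-0.671) and Mcm3 (-0.527), and r among the 28 pairs of replication genes ran from -0.671 to 0.912. A CHR lay in the promoter windows of 4 of these 7 members (Cdk1, Cdc45, Mcm7 and Aurka) and of 11 of the 20 with a window among the 24 whose median r was above 0.

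**Figure D4:**
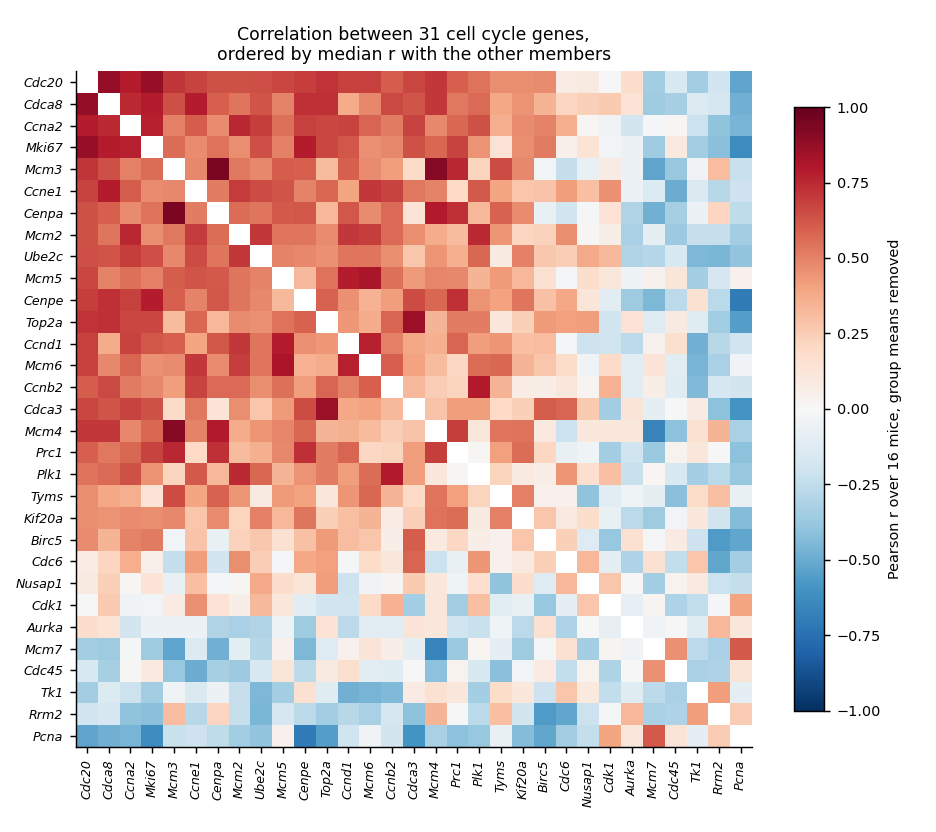
Pearson r over 16 mice with group means removed (colour, from -1 in blue to 1 in red) between the 31 tested members, on both axes in order of their median r with the others. The block from Cdc20 to Plk1 is mostly red, and Pcna at the end has r with Mki67 of -0.626.

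Mki67 was taken as the reference, and its r with each gene was tested by 100000 permutations of the mice within groups. Of the 30 other members 24 had r above 0, with a median of 0.477, while the median over all 20326 other genes was -0.118. An unadjusted permutation p under 0.05 with r above 0 was found for 12 of 30 members (6.4% of all genes). After Benjamini-Hochberg adjustment over all genes no member passed, as for 0% of genes, and the smallest adjusted permutation p of a member was 0.0889. That was Cdc20, with r = 0.869 and a permutation p of 0.0001 (rho = 0.862, permutation p = 0.00018). Cenpe, a kinetochore motor, had r = 0.782 (permutation p = 0.00146) and rho = 0.776 (permutation p = 0.00165). Cdca8 had r = 0.782 (permutation p = 0.00215) and rho = 0.644, and Ccna2, the cyclin of S and G2, r = 0.781 (permutation p = 0.00183) and rho = 0.756.

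Pcna ran against Mki67, with r = -0.626 (permutation p = 0.0355, adjusted 0.263) and rho = -0.574 (permutation p = 0.0372), the only 1 of 30 members with r below 0 and an unadjusted p under 0.05 (10.7% of all genes). Leaving out the mice farthest from the Mki67 median, Conv + PBS mouse 1 and Conv + OM(HFD) mouse 25, r was 0.745 for Cdc20, 0.631 for Cenpe, 0.477 for Cdca8, 0.556 for Ccna2 and -0.431 for Pcna, while Cdk1, with r = -0.031 over all mice, had -0.697. The median over members fell from 0.477 to 0.242, with 21 of 30 above 0, and that over all genes was -0.092. Of 14 members with r over 0.5, 10 kept r over 0.5 without these mice. On slide 1 alone 25 of 30 members had r above 0 and on slide 2 alone 20 did.

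Other measures moved with Mki67 over the same mice. The 75th percentile of an array's brightness, by which levels were scaled, had r = 0.586 with Mki67 and 0.539 with the mean of the 31 members, while the share of probes detected had -0.071 and 0.078. The mean of the members was -0.91 in Conv + PBS mouse 1 and -0.82 in Conv + OM(HFD) mouse 25, the highest of the 16, and its group means were -1.20 ± 0.20 (SD, n = 6) in Conv + PBS, -1.25 ± 0.20 (SD, n = 5) in Conv + LM and -1.22 ± 0.27 (SD, n = 5) in Conv + OM(HFD).

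Markers of other cells rose and fell with Mki67 to different degrees. All 7 tested Kupffer cell markers, among them Clec4f and Cd5l, had r above 0 with Mki67, from 0.574 to 0.686, each with an unadjusted permutation p under 0.05 (6.4% of all genes with r above 0). Of 7 tested markers of neutrophils and granulocyte precursors all had r above 0 and 4 such a p, against the same 6.4%. The mean log2 level of the Kupffer markers was 3.55 in Conv + PBS mouse 1 and 2.39 in Conv + OM(HFD) mouse 25, and ran from 0.76 to 1.45 in Conv + LM mice. That of the granulocyte markers was 0.65 and 1.22 in these mice and -2.98 to -1.93 in Conv + LM mice, with Ltf not past the filter. Without both mice the median r with Mki67 was 0.246 for the Kupffer markers and -0.446 for the granulocyte markers, so the granulocyte relation rested on them. Single Kupffer markers then had r of -0.024 to 0.355, with -0.024 for Clec4f and 0.164 for Cd5l, so much of that relation rested on them too. The part of these markers in the members' pattern was not tested.

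Hepatocyte markers ran against Mki67. All 5 (Alb, Ttr, Apoa1, Serpina1a and Tat) had r below 0, from -0.79 for Ttr to -0.479 for Apoa1, each with an unadjusted permutation p under 0.05, as had 10.7% of all genes with r below 0, and without both mice their r was -0.784 to -0.347. The mean of the 5 ran from 9.40 to 9.82 in Conv + PBS, 9.52 to 9.89 in Conv + LM and 9.64 to 9.88 in Conv + OM(HFD) mice, and every one was well above background on all arrays. Of the other lists, B and plasma cell markers had a median r of 0.592 (4 tested, Cd79a not past the filter), T and NK cell markers 0.428 (Cd8a not past the filter), red cell precursor markers 0.09, endothelial markers -0.269, bile duct markers -0.33 and stellate cell markers -0.442. Without both mice these were 0.203, -0.062, -0.308, -0.102, -0.095 and -0.081. Among all these markers, some had an unadjusted limma p under 0.05 between groups, and none passed after adjustment. Against controls, Conv + OM(HFD) mice were lower for Lrat (-0.63, SE 0.14), Clec4g (-0.48, SE 0.18) and Cd3g (-0.46, SE 0.16). Lrat was also lower in them than in the Conv + LM group, by -0.39 (SE 0.15). Klrb1c had such a p against controls too. Its probe was well above background in 5 of 6 controls and 2 of 5 Conv + OM(HFD) mice. It passed the filter through the controls, so nothing is read from it.

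**Figure D5:**
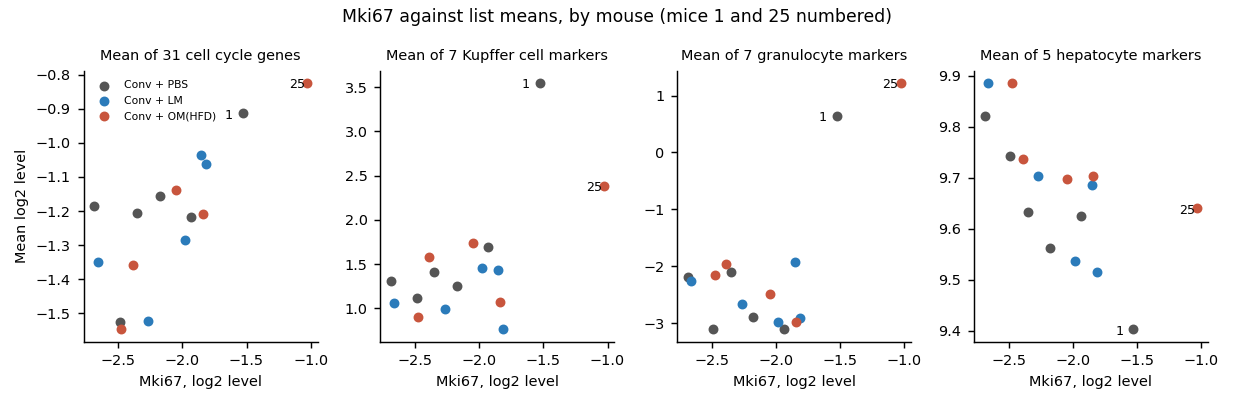
Log2 level of Mki67 (x axis) against the mean log2 level (y axis) of the 31 tested members and of Kupffer cell, granulocyte and hepatocyte markers, 1 point per mouse, coloured by group. Mice 1 (Conv + PBS) and 25 (Conv + OM(HFD)) stand apart in the Kupffer and granulocyte panels, and the hepatocyte markers fall as Mki67 rises among the other mice too.

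Lists of cycle genes outside the 40 were set against Mki67 too, with no test of their difference from the members. The median r with Mki67 was 0.179 over 23 other G1/S genes, 0.176 over 17 other G2/M genes, -0.196 over 6 other G1 cyclins and kinases and -0.085 over 15 brakes with a value in every mouse, and without both mice these were 0.143, 0.002, -0.039 and -0.129. Uhrf1, which keeps DNA methylated through replication, had r = 0.697 (permutation p = 0.00921), and 0.663 without both mice. E2f1 had r = 0.627 (permutation p = 0.0354), and 0.164 without them. Cdkn1a, or p21, a brake, had r = -0.572 (permutation p = 0.0271), and -0.371 without them. None of these 3, named after their values were seen, passed adjustment over all genes.

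The 10 genes outside the members whose levels followed the mean of the 31 most closely over the 16 mice, with group means removed, were Il10rb (r = 0.925), Slc51b (0.904), Vps39 (0.881), Pfkfb4 (0.87), Gm15327 (0.869), Mx1 (0.868), Tmem86a (0.868), Oas1a (0.867), B3gnt9 (0.862) and Csrp1 (0.862). Il10rb is a receptor subunit of the interleukin-10 family, Slc51b a subunit of a bile acid transporter, and Mx1 and Oas1a are interferon-induced. In all, 463 of 20296 genes outside the members (2.28%) had r over 0.7, and 426 had r under -0.7.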

How the data were processed

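The members and gene lists were chosen with earlier results of these data known. The authors scanned the arrays with Agilent Feature Extraction 10.10.1.1, which gave the deposited intensity of each spot on a linear scale, corrected for background within the array. The authors also deposited log2 values, which here matched log2 median intensity after quantile normalization (largest difference 0.132). Gene names and probe positions (mm9) are those of the array. Control spots and spots flagged as outliers were left out, log2 intensity was centred on its 75th percentile in each array, a probe was kept if 5 or more of the 16 arrays had it well above background, and the probe with the highest mean stood for a gene. Groups, set from the labels, were compared in limma 3.58.1 (R 4.3.3) with Benjamini-Hochberg adjustment, and single members by exact 2-sided permutation tests (scipy 1.17.1), whose smallest p is 0.00216 for 5 against 6 mice, 0.00794 for 5 against 5 and 9.91e-07 for 3 groups. The scripts were tested on simulated data. The number of arrays limits the precision, and each array is 1 mouse.

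Named in full were Mki67, Top2a, Ccnd1, Mcm2, Pcna, Birc5 and every member at an unadjusted limma p under 0.05; of other lists, up to 3 genes per comparison at such a p; and the 10 genes most like the members. Correlations were computed over genes with a value in all mice. P-values of correlations with Mki67 were adjusted over all genes rather than, as first planned, over the members. Alternatives were normexp (offset 50), quantile normalization, the authors' log2 values, other filters, slide as a block, array weights, other rules for probes, only the mice compared, the unpaired Student's t-test and leaving out mice. The methods list that t-test among their tests but do not say which test was used for the arrays.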

Additional observations from a re-analysis of the deposited data

Results flagged for a closer look

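In 93 sets of values (31 tested members in 3 groups), 7 had a mouse whose gap to the nearest other exceeded Dixon's critical value, where chance gives about 5% of sets. Conv + OM(HFD) mouse 25 was high for Cdca8 (gap 0.775 of the group's range, level -0.75 against -1.49 to -1.32 in the others) and for Cdca3 (0.719, -1.62 against -2.50 to -2.26). Conv + PBS mouse 1 was high for Cdca8 (0.712, -0.50 against -1.40 to -1.14). Conv + LM mouse 17 was high for Cdc45 (0.791, -2.46 against -4.89 to -4.38), the only 1 of the 5 Conv + LM mice with that probe above background, so the gap is set by values without order, and Conv + OM(HFD) mouse 30 for Aurka (0.721, -0.93 against -1.47 to -1.32). Conv + PBS mouse 6 was low for Cenpa (0.701, -1.77 against -0.98 to -0.64), and Conv + PBS mouse 5 for Cdc6 (0.647, -4.15 against -3.40 to -2.99), where its probe was not well above background.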

How the results depend on the processing

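No member and no gene passed an adjusted p of 0.05 in limma in any of the alternatives run, and the unpaired Student's t-test gave 0 members after adjustment and 1, 2 and 2 at its unadjusted threshold for Conv + OM(HFD) vs. Conv + PBS, Conv + LM vs. Conv + PBS and Conv + OM(HFD) vs. Conv + LM. The count of members at an unadjusted p under 0.05 for Conv + OM(HFD) vs. Conv + PBS (1) became 2 with the authors' log2 values, with no filter, with array weights and with only the mice compared, stayed 1 under normexp but with Pcna, lower, in place of Cdk1, higher, and was 0 with probes well above background on all arrays, where Cdk1 was not tested; it was 1 to 2 without 1 mouse. That for Conv + LM vs. Conv + PBS (3) was 0 to 4 without 1 mouse, with 0 without Conv + LM mouse 13 and 1 without Conv + LM mouse 16 or Conv + PBS mouse 4 or 5. That for Conv + OM(HFD) vs. Conv + LM (2) was 1 with normexp, quantile normalization, the authors' values, no filter, probes on all arrays, array weights and the mean of all probes, and 1 to 2 without 1 mouse. That for any difference among 3 groups (2) was 1 with probes on all arrays, array weights and the mean of all probes, 3 with quantile normalization, the authors' values and slide as a block, where Pcna was added, and 1 to 3 without 1 mouse. The median log2 fold change of members moved by less than the spread between mice in every alternative, but crossed 0 in some, running from -0.0996 to 0.129, -0.0947 to 0.0646 and -0.0547 to 0.133 in the 3 comparisons. The median correlation between members (0.245) was 0.367 on slide 1 alone and 0.183 to 0.272 without 1 mouse. No log2 fold change of a member at an unadjusted p under 0.05 changed sign. The causes were not tested. No paired analysis was possible because no mouse number occurs in more than 1 group.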

Other observations

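A pair of members below the filter had a single brightest mouse far above the rest, seen after the values were read. Bub1b, a kinase of the spindle checkpoint, was well above background on 1 array, with a log2 level of 0.63 in Conv + PBS mouse 5 and -6.24 to -3.97 in the other 15 mice. Kif11, a spindle motor, was well above background in 3 Conv + PBS and 1 Conv + OM(HFD) mice, with -0.57 in Conv + PBS mouse 4, -2.39 in Conv + PBS mouse 6 and -6.19 to -2.67 in the others. Most of these values lie under background and have no order.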
